A study of Mus musculus with 6 samples.

Results

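The Kcnq1 imprinted domain on distal mouse chromosome 7 was examined in whole ovaries of mice whose ancestors had been exposed to a phthalate. Its genes were chosen by name: the noncoding RNA Kcnq1ot1, its host gene Kcnq1, and Cdkn1c, Phlda2, Slc22a18, Nap1l4, Osbpl5, Tssc4, Cd81 and Tspan32, which lie around it. Of these 10 genes, 7 had a row among the 16454 genes of the deposited table; Phlda2, Slc22a18 and Tspan32 had none and were not measured. Kcnq1ot1 was chosen on its difference between the lineages in these same ovaries, so its values are given as a description with no test, whereas the other 9 genes were chosen by map position.

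The DEHP lineage comprised 3 ovaries of CD1 mice, an outbred stock, at postnatal day 21 in generation F3, descended from F0 dams dosed with the plasticizer DEHP, di(2-ethylhexyl) phthalate, at 20 µg/kg/day. The control lineage comprised 3 ovaries of the same stock, age and generation, descended from dams given the vehicle, tocopherol-stripped corn oil. Each ovary was sequenced alone from a stranded mRNA library. The labels do not say whether the ovaries of a lineage came from separate litters or how many founder dams stood behind them, so p-values measure only the spread between these ovaries. The values are log2 CPM, read counts scaled to the size of the library and put on a log2 scale, from which the authors had removed a surrogate variable, an estimated nuisance direction across samples. The depth of each library is unknown.

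Imprinted genes are expressed mainly from the copy of one parent. In the Kcnq1 domain the promoter of Kcnq1ot1 lies inside an imprint control region that is methylated on the maternal chromosome. On the paternal chromosome the region is unmethylated, Kcnq1ot1 is transcribed antisense to Kcnq1, and its RNA silences flanking genes in cis, among them the growth inhibitors Cdkn1c and Phlda2. Silencing of the outer genes, such as Osbpl5, Tssc4, Cd81 and Tspan32, is known mainly from the placenta. The methylation mark is set during oocyte growth. The deposited values sum both parental copies, so nothing here measures imprinting itself.

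All coordinates are RefSeq's on GRCm38.p6. Strands and the exon blocks of Kcnq1 are GENCODE's, and their overlap was taken with the RefSeq span of Kcnq1ot1. Kcnq1ot1 (Entrez 63830) occupied chr7:143213111-143296547 on the minus strand and lay wholly inside Kcnq1 (Entrez 16535), which occupied chr7:143106877-143427050 on the plus strand. Kcnq1ot1 is thus transcribed against its host; 1 Kcnq1 exon block of 121 bases, 2.96% of the Kcnq1 exon bases, fell within the noncoding RNA. On the side toward higher coordinates followed Cdkn1c, Slc22a18, Phlda2, Nap1l4 and Osbpl5, whose transcription starts lay 164.5, 177.2, 206.6, 253.3 and 460.5 kb from that of Kcnq1ot1. On the other side the starts lay at -189.7 kb for Kcnq1, -228.1 kb for Tssc4, -243.8 kb for Cd81 and -291.6 kb for Tspan32. The stretch from Tspan32 to Osbpl5 covered 752 kb and 24 annotated genes, of which 12 had a row in the table.

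RefSeq promoter windows of 300 bases, 250 before the start and 50 after it, matched 7 of the 10 genes, and 4 of the 7 measured ones; Kcnq1, Cdkn1c and Nap1l4 were not among them. The window of Kcnq1ot1 is shown whole because its transcription is the switch of the domain, beside the 250 bases upstream of the start of Osbpl5 (the outermost of its 3 windows) and of Cd81, genes from the opposite ends of the measured stretch. The window the table gives for Tssc4 lies inside its RefSeq span, downstream of the start used for the distances, and is not shown. Sequences run 5′ to 3′ on the strand of the gene. Capitals mark CCAAT or its reverse complement ATTGG, searched on both strands; this pentamer is the core of the element bound by the trimeric factor NF-Y. The coordinates are chr7:143296498-143296797 (minus strand) for Kcnq1ot1, chr7:143757009-143757258 (minus strand) for Osbpl5 and chr7:143052500-143052749 (plus strand) for Cd81.
Kcnq1ot1: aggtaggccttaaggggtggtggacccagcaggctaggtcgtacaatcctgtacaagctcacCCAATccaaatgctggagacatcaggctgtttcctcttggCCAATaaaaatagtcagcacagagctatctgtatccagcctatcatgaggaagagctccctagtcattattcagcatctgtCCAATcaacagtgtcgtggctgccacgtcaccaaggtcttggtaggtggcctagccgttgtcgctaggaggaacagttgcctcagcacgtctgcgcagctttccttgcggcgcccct
Osbpl5: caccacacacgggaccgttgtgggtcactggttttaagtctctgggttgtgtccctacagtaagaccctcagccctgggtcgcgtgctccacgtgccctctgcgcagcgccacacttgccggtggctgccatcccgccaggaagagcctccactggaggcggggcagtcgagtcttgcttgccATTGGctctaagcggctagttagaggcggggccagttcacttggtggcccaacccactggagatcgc
Cd81: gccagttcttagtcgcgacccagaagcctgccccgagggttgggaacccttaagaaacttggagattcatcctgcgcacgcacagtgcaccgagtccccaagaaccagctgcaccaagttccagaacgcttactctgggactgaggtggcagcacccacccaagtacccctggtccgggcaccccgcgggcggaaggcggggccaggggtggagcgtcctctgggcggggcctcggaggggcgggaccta

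The Kcnq1ot1 window held 3 such pentamers, at positions -188, -148 and -67 from the start. Among 32851 promoter windows of the same length, 37.4% held at least 1 and 3.4% held at least 3. The outermost Osbpl5 window held 1, at -67, and that of Cd81 held 0. The Kcnq1ot1 window had 9 CpG dinucleotides, a count that 45.8% of windows reached or passed. The outermost Osbpl5 window had 16, which 33.0% reached or passed, and that of Cd81 had 23, which 21.5% reached or passed. The other Osbpl5 windows held 0 pentamers and had 1 and 21 CpG dinucleotides. These are letter matches in the reference; no binding or methylation was measured in these files.

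Kcnq1ot1, the noncoding RNA of the domain, had 45.4, 52.0 and 46.8 CPM in the 3 DEHP-lineage ovaries, against 30.7, 31.9 and 29.0 CPM in the 3 control-lineage ovaries. Every DEHP-lineage ovary lay above every control-lineage ovary, and the gap between the lineages was wider than the spread within either. The means were 48.0 ± 3.47 CPM in the DEHP lineage and 30.5 ± 1.47 CPM in the control lineage (SD, n = 3 each), a difference of 0.65 on the log2 scale (SE 0.092), or 1.57-fold. The SDs are those left after the removal of the surrogate variable, whose direction weighed DEHP-lineage replicate 1 at -0.60 and replicate 3 at 0.75, and the heaviest control ovary at -0.19; the spread before that step is unknown. The gene was chosen because its adjusted p, in limma's moderated test with 4 residual degrees of freedom, was 0.0427; with 3, which counts the removed direction, the adjusted p was 0.157. In the authors' deposited table its log2 fold change was 0.66 and its adjusted p 0.217.

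**Figure D1:**
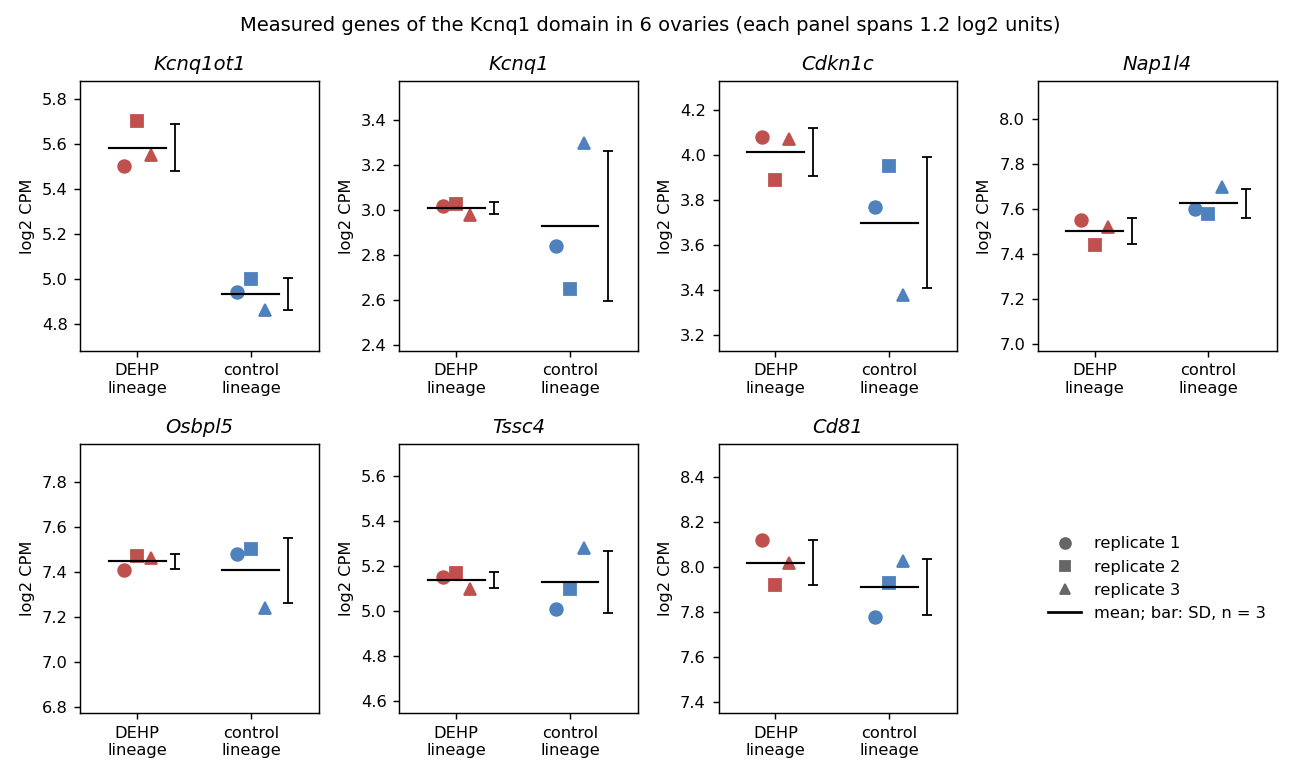
Log2 CPM of the 7 measured domain genes in each of the 6 ovaries, with DEHP-lineage ovaries in red on the left and control-lineage ovaries in blue on the right of every panel; horizontal lines are means and bars SDs (n = 3), and every panel spans the same log2 range. Kcnq1ot1 lay between 5.50 and 5.70 log2 CPM in the DEHP lineage, against 4.86 to 5.0 in the control lineage; Nap1l4 was the only other gene of the 7 whose lineages did not overlap.

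Whole ovaries were measured, so fewer cells of a type and less RNA per cell cannot be told apart. All 10 oocyte genes and all 8 granulosa genes of the lists had a row. In every ovary the oocyte list summed to at least 1012 CPM and the granulosa list to at least 5887 CPM. The summed level of 5 lymphatic endothelial markers was 158 to 163 CPM in the DEHP lineage, against 118 to 126 CPM in the control lineage, with all 5 genes higher. The summed levels of 3 other lists were lower in the DEHP lineage without overlap. Smooth muscle and pericyte markers summed to 1563 to 1793 CPM in the DEHP lineage, against 1925 to 2142 CPM in the control lineage, with 0 of 6 genes higher. Theca and interstitial markers summed to 2289 to 2363 CPM in the DEHP lineage, against 2462 to 3095 CPM in the control lineage, with 0 of 6 higher. Stromal fibroblast markers summed to 3077 to 3186 CPM in the DEHP lineage, against 3188 to 3767 CPM in the control lineage, with 2 of 5 higher.

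The other marker sums overlapped between the lineages. Oocyte markers summed to 1012 to 1142 CPM in the DEHP lineage, against 1086 to 1417 CPM in the control lineage, with 2 of 10 higher. Granulosa markers summed to 7236 to 8078 CPM in the DEHP lineage, against 5887 to 7322 CPM in the control lineage, with 4 of 8 higher. Blood endothelial markers summed to 233 to 269 CPM in the DEHP lineage, against 254 to 299 CPM in the control lineage, with 1 of 5 higher. Macrophage and leukocyte markers summed to 31.8 to 37.4 CPM in the DEHP lineage, against 16.8 to 58.2 CPM in the control lineage, with 2 of 5 higher. Erythroid markers summed to 115 to 278 CPM in the DEHP lineage, against 65.4 to 126 CPM in the control lineage, with 4 of 4 measured genes higher. The remaining lists mark fat, the surface of the ovary and the oviduct. Adipocyte markers summed to 33.2 to 259 CPM in the DEHP lineage, against 41.6 to 148 CPM in the control lineage, with 3 of 5 higher. Surface epithelial markers summed to 40.7 to 43.1 CPM in the DEHP lineage, against 34.3 to 48.6 CPM in the control lineage, with 2 of 5 higher. Oviduct markers summed to 6.08 to 14.6 CPM in the DEHP lineage, against 4.49 to 7.70 CPM in the control lineage, with 4 of 4 higher. The part of these sums in the difference of Kcnq1ot1 was not tested.

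The protein-coding neighbours of Kcnq1ot1 did not pass the test. Of the 6 other measured genes, 0 passed the adjusted threshold of 0.05 in limma, which 7 of all 16454 genes (0.0425%) did, and 0 had an unadjusted p under 0.05, against 1445 genes (8.78%). In the authors' deposited table their adjusted p-values were 0.867 for Cdkn1c and higher for the rest, up to 0.994 for Tssc4. Of the 6, 5 had a higher mean and 1 a lower mean in the DEHP lineage, where 46.9% of all genes had a higher mean. Their median absolute difference was 0.09 on the log2 scale, against 0.12 over all genes, and their median difference was 0.06, against -0.012 over all genes. In 1 of the 6, or 16.7%, the lineages did not overlap, against 22.9% of all genes.

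**Figure D2:**
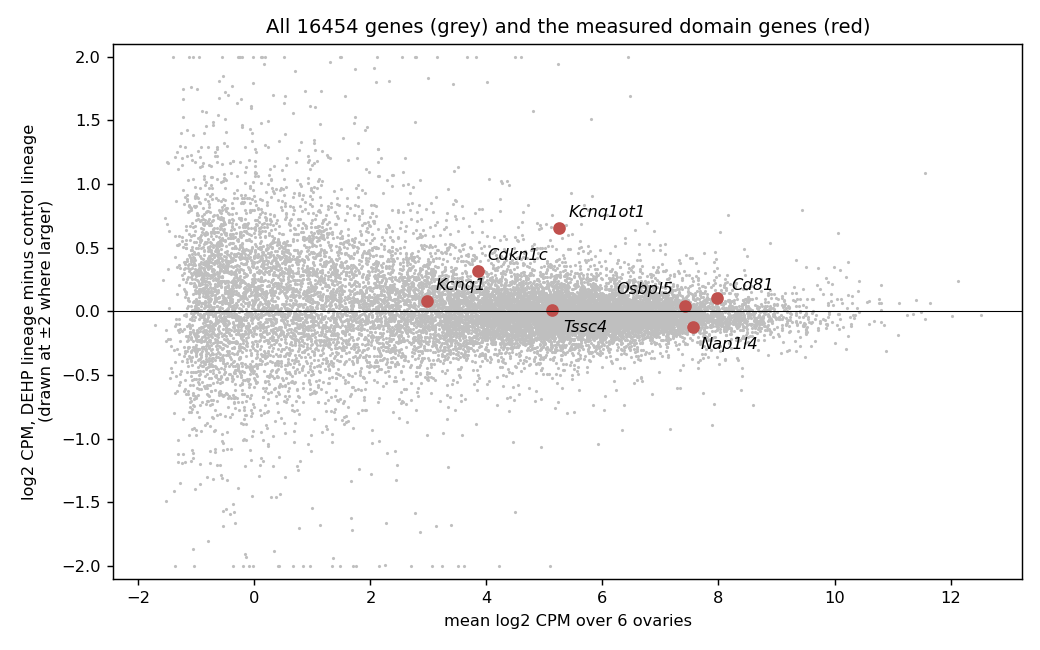
Difference in log2 CPM (DEHP lineage minus control lineage) against the mean log2 CPM over the 6 ovaries for all 16454 genes (grey) and the 7 measured domain genes (red), with larger differences drawn at the edge of ±2. Kcnq1ot1, chosen for its difference, stood at 0.65, while the other 6 genes, between -0.12 and 0.32, lay within the bulk.

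Kcnq1, the host gene, encodes a voltage-gated potassium channel subunit. It had 8.13, 8.17 and 7.89 CPM in the DEHP lineage, against 7.14, 6.29 and 9.88 CPM in the control lineage. The DEHP-lineage values lay inside the wider range of the control ovaries, with means of 8.06 ± 0.147 CPM in the DEHP lineage and 7.77 ± 1.87 CPM in the control lineage (SD, n = 3 each). The difference was 0.08 on the log2 scale, with a 95% interval of -0.39 to 0.55 (limma, adjusted p = 0.926). Replicate 2 of the control lineage set its sign, since without that ovary the difference was -0.06.

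The sources used here do not state whether the authors' counting used strand, although the library kit marks it. If strand was ignored, reads of Kcnq1ot1 and Kcnq1 over their shared exon bases could not be told apart. The same would hold for reads of unspliced Kcnq1 RNA over all 83437 bases of Kcnq1ot1, which lies wholly inside Kcnq1. The part of such reads in the values of Kcnq1ot1 was not tested. The summed CPM of both genes was 53.5, 60.1 and 54.7 in the DEHP lineage, against 37.8, 38.2 and 38.9 in the control lineage. Most of each sum was Kcnq1ot1 itself, the gene chosen on its difference, so the log2 difference of the sum, 0.55 (SE 0.082), is a description and no check of the strand setting. The log2 ratio of Kcnq1ot1 to Kcnq1 was 2.48, 2.67 and 2.57 in DEHP-lineage ovaries, against 2.1, 2.34 and 1.55 in control-lineage ovaries. All 3 DEHP-lineage ratios lay above all 3 control-lineage ratios, which the choice of Kcnq1ot1 and the small difference of Kcnq1 largely fix.

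Cdkn1c encodes p57, an inhibitor of cyclin-dependent kinases that restrains growth, and is a well-studied target of silencing by Kcnq1ot1. It had 16.9, 14.9 and 16.9 CPM in the DEHP lineage, against 13.7, 15.4 and 10.4 CPM in the control lineage. The lineages overlapped, because control replicate 2 exceeded DEHP-lineage replicate 2. The means were 16.2 ± 1.16 CPM in the DEHP lineage and 13.2 ± 2.54 CPM in the control lineage (SD, n = 3 each), a log2 difference of 0.32 with an interval of -0.08 to 0.72 (limma, adjusted p = 0.644). Leaving out single ovaries moved the difference between 0.16, without control replicate 3, and 0.44, without control replicate 2. The log2 ratio of Kcnq1ot1 to Cdkn1c was 1.43, 1.81 and 1.47 in DEHP-lineage ovaries, against 1.17, 1.05 and 1.48 in control-lineage ovaries, and the lineages overlapped. Kcnq1ot1 was chosen for its difference, so a shift of this ratio follows in part from that choice. Of the sequence of Cdkn1c transcripts, 27.22% of 31-base words, compared on both strands, also occurred in transcripts of the GENCODE gene Gm44732. How reads over these words were counted is unknown. For Kcnq1ot1 the share was 4.49%, spread over transcripts of 5507 other genes.

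Nap1l4 encodes a histone chaperone of the nucleosome assembly protein family. It had 188, 173 and 184 CPM in the DEHP lineage, against 194, 191 and 208 CPM in the control lineage. Every DEHP-lineage ovary was below every control-lineage ovary, by a small margin. The means were 182 ± 7.65 CPM in the DEHP lineage and 198 ± 8.76 CPM in the control lineage (SD, n = 3 each). The log2 difference was -0.12, with an interval of -0.29 to 0.05 (limma, adjusted p = 0.675). After quantile normalization the lineages overlapped.

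Osbpl5, an oxysterol-binding-protein relative that moves lipids between membranes, had 171, 177 and 176 CPM in the DEHP lineage, against 179, 181 and 151 CPM in the control lineage. Control replicate 3 was the lowest of the 6 ovaries and the other control ovaries the highest. The log2 difference was 0.04, with an interval of -0.17 to 0.25 (limma, adjusted p = 0.918), and it was -0.05 without control replicate 3.

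On the far side of Kcnq1 lie Tssc4, which takes part in assembly of the spliceosomal U5 particle in human cells, and Cd81, a tetraspanin of the cell membrane. Tssc4 had 35.5, 36.1 and 34.4 CPM in the DEHP lineage, against 32.2, 34.4 and 38.9 CPM in the control lineage. The control ovaries enclosed those of the DEHP lineage, and the log2 difference was 0.01, with an interval of -0.22 to 0.24 (limma, adjusted p = 0.982). Of its 31-base words, 9.71% also occurred in transcripts of the neighbouring gene Trpm5. Cd81 had 277, 243 and 260 CPM in the DEHP lineage, against 219, 245 and 261 CPM in the control lineage. The lineages overlapped, with a log2 difference of 0.11 and an interval of -0.11 to 0.33 (limma, adjusted p = 0.773).

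The SD of log2 CPM was smaller in the DEHP lineage than in the control lineage in 6 of the 7 measured genes, as in 69.6% of all genes. The gap was widest for Kcnq1, at 0.026 in the DEHP lineage and 0.336 in the control lineage. Cdkn1c had 0.106 in the DEHP lineage and 0.290 in the control lineage, and Osbpl5 had 0.030 in the DEHP lineage and 0.149 in the control lineage. The SDs of Nap1l4 were nearly equal, at 0.061 in the DEHP lineage and 0.063 in the control lineage. Kcnq1ot1 alone of the 7 had the larger SD in the DEHP lineage, 0.103, against 0.070 in the control lineage. The removed direction fell mostly on DEHP-lineage replicates 1 and 3, whose libraries also correlated at 0.998 across genes, against 0.978 to 0.989 for the other pairs. How much of the narrow DEHP-lineage spread came from the removal was not tested.

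Levels were compared between genes only per length, as CPM per kb of annotated exon averaged over the 6 ovaries. Cd81 had the highest level per length of the 7, at 87.2 CPM per kb (range over ovaries 76.2 to 96.3), followed by Nap1l4 at 61.3 (56.0 to 67.1) and Osbpl5 at 35.1 (30.7 to 36.9). Below them were Tssc4 at 19.1 CPM per kb (17.4 to 21.1), Cdkn1c at 7.20 (5.10 to 8.28), Kcnq1 at 1.93 (1.54 to 2.41) and Kcnq1ot1 at 0.422 (0.311 to 0.558). No ranges of neighbours in this order overlapped. Kcnq1ot1 is annotated in GENCODE as 1 exon of 93092 bases; over the RefSeq span of 83437 bases its level was 0.471 CPM per kb.

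**Figure D3:**
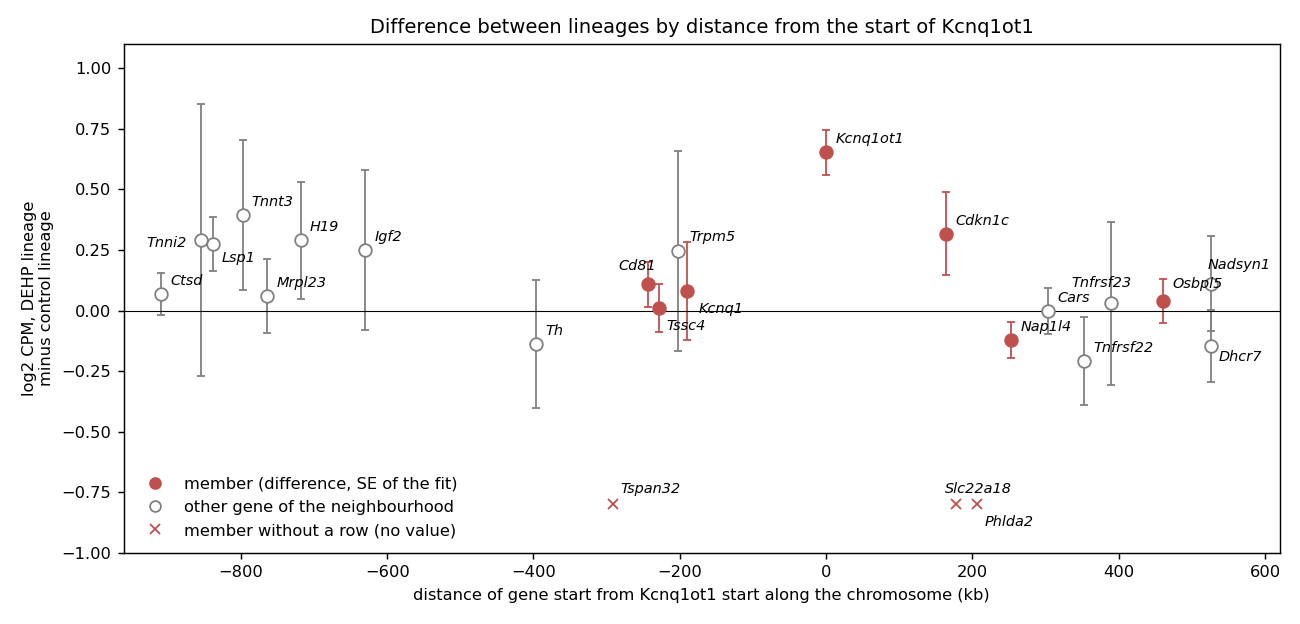
Difference in log2 CPM (DEHP lineage minus control lineage, bars SE of the fit) for the measured domain genes (red) and other listed genes of the neighbourhood (open grey), by the distance of each gene's transcription start from that of Kcnq1ot1 in kb; crosses mark Phlda2, Slc22a18 and Tspan32, which have no value. Kcnq1ot1 at 0.65 lay above all other plotted genes, and its nearest measured neighbours by start were Cdkn1c at 0.32 and Kcnq1 at 0.08.

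Of 19 other genes listed from the wider neighbourhood, 14 were measured, 10 with a higher and 4 with a lower mean in the DEHP lineage, and 0 passed the adjusted threshold. Their median difference was 0.09, and 1 gene (7.14%) had an unadjusted p under 0.05, against 8.78% of all genes. That gene was Lsp1, an actin-binding protein of leukocytes, at 42.4 ± 0.881 CPM in the DEHP lineage and 35.3 ± 4.49 CPM in the control lineage (SD, n = 3 each; log2 difference 0.27, limma adjusted p = 0.559). The muscle troponin gene Tnnt3 had a log2 difference of 0.39 (limma, adjusted p = 0.748) at under 1 CPM in all 6 ovaries. H19, the maternally expressed noncoding RNA of the adjacent imprinted domain, had 45.8, 46.1 and 51.5 CPM in the DEHP lineage, against 52.2, 44.1 and 25.8 CPM in the control lineage. Its lineages overlapped and its log2 difference was 0.29 (SE 0.241; limma, adjusted p = 0.760). Its paternally expressed partner Igf2, named here for that role after its values were seen, averaged 16.6 ± 6.02 CPM in the DEHP lineage and 13.9 ± 5.14 CPM in the control lineage (SD, n = 3 each; log2 difference 0.25, limma adjusted p = 0.860).

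Within the stretch from Tspan32 to Osbpl5, the 5 measured genes outside the chosen 10 were Cars, R74862, Tnfrsf22, Tnfrsf23 and Trpm5, and 0 of them passed the adjusted threshold. All but R74862 were already counted in the wider neighbourhood above. The log2 difference was -0.21 (SE 0.181, limma adjusted p = 0.774) for Tnfrsf22, a decoy receptor of the tumour necrosis factor family. Its lineages narrowly missed overlap, with at most 5.23 CPM in the DEHP lineage and at least 5.26 CPM in the control lineage. It was the 1 of the 5 (20.0%) without overlap, against 22.9% of all genes. For the cation channel Trpm5, at means of 1.28 CPM in the DEHP lineage and 1.09 CPM in the control lineage, the log2 difference was 0.24 (SE 0.413). The log2 difference was 0.07 for the noncoding R74862, whose span shares 937 bases with that of Cd81. The median of the 5 was 0.03.

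Of 38 listed genes of DNA methylation, histone modification and imprint upkeep, 36 were measured, 14 with a higher and 22 with a lower mean in the DEHP lineage. None passed the adjusted threshold, against 0.0425% of all genes, the median difference was -0.03, and 1 gene (2.78%) had an unadjusted p under 0.05, against 8.78% of all genes. Kmt5c, which trimethylates histone H4 at lysine 20, had 61.2, 74.8 and 63.2 CPM in the DEHP lineage, against 51.1, 55.3 and 50.8 CPM in the control lineage. Its lineages did not overlap, and its log2 difference was 0.34 (SE 0.10; limma, adjusted p = 0.480). Dnmt3l, the cofactor that sets maternal imprints in growing oocytes, averaged 6.0 ± 0.276 CPM in the DEHP lineage and 7.65 ± 1.59 CPM in the control lineage (SD, n = 3 each; log2 difference -0.33, limma adjusted p = 0.675). Kdm1b, a demethylase needed for some maternal imprints in oocytes, averaged 76.1 ± 8.45 CPM in the DEHP lineage and 87.9 ± 10.3 CPM in the control lineage (SD, n = 3 each). Its log2 difference was -0.21 (limma, adjusted p = 0.669). The 3 subunit genes of NF-Y, named for the CCAAT pentamers above, differed by 0.19 (Nfya), -0.08 (Nfyb) and 0.00 (Nfyc) on the log2 scale. Their adjusted p-values in limma were 0.887, 0.805 and 0.996. Nfya was at a low level, with means of 0.825 CPM in the DEHP lineage and 0.73 CPM in the control lineage.

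Around Cdkn1c, all 18 listed relatives, cyclins, kinases and pocket proteins were measured, 8 with a higher and 10 with a lower mean in the DEHP lineage, a median of -0.02, and 0 past the adjusted threshold. Of the 18, 4 (22.2%) had an unadjusted p under 0.05, against 8.78% of all genes. This list was drawn up with earlier results of these data known, so the share is a description. Cdkn1a, the p21 relative of Cdkn1c and a target of p53, had 6.46, 4.6 and 5.92 CPM in the DEHP lineage, against 2.95, 4.12 and 2.55 CPM in the control lineage. Its lineages did not overlap, and its log2 difference was 0.83 with an interval of 0.23 to 1.44 (limma, adjusted p = 0.491). Cdk1, the mitotic kinase, averaged 116 ± 2.73 CPM in the DEHP lineage and 141 ± 13.5 CPM in the control lineage (SD, n = 3 each; log2 difference -0.27, limma adjusted p = 0.491). Its S-phase and mitotic partner Ccna2 averaged 216 ± 7.48 CPM in the DEHP lineage and 253 ± 18.4 CPM in the control lineage (SD, n = 3 each; log2 difference -0.23, limma adjusted p = 0.511).

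Of the 5 Kcne genes, which encode the small subunits that modify the Kcnq1 channel, 3 were measured and 0 passed the adjusted threshold. Kcne4, an inhibitory subunit, had 2.64, 2.89 and 2.57 CPM in the DEHP lineage, against 7.47, 10.8 and 7.66 CPM in the control lineage. The lineages were far apart, with a log2 difference of -1.66 and an interval of -2.17 to -1.15, but the adjusted p over all genes was 0.141 (limma). Kcne3 differed by 0.17 and Kcne2 by 0.32 on the log2 scale, with adjusted p-values in limma of 0.818 and 0.897; the median of the 3 was 0.17. Kcne4 was the 1 of the 3 (33.3%) with an unadjusted p under 0.05, against 8.78% of all genes. It was also the 1 whose lineages did not overlap, against 22.9% of all genes. The list was drawn up with earlier results of these data known, so both shares are a description that rests on Kcne4 alone.

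All 10 listed partners of Cd81 in tetraspanin complexes were measured, 7 with a higher and 3 with a lower mean in the DEHP lineage, a median of 0.02, and 0 past either threshold. Cd9, the closest functional relative of Cd81 at the egg surface, averaged 49.4 ± 1.1 CPM in the DEHP lineage and 54.1 ± 1.88 CPM in the control lineage (SD, n = 3 each; log2 difference -0.13, limma adjusted p = 0.661). Cd63 differed by 0.13 and Tspan31 by 0.06 on the log2 scale, with adjusted p-values in limma of 0.775 and 0.841.

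The 15 listed relatives of Phlda2, Nap1l4 and Osbpl5 were all measured, 5 with a higher and 10 with a lower mean in the DEHP lineage, a median of -0.05, and 0 past the adjusted threshold. Phlda1, a relative of the unmeasured Phlda2, averaged 21.8 ± 3.31 CPM in the DEHP lineage and 29.6 ± 5.09 CPM in the control lineage (SD, n = 3 each; log2 difference -0.44, limma adjusted p = 0.530). It was the 1 gene of the list (6.67%) with an unadjusted p under 0.05, against 8.78% of all genes. Phlda3 differed by -0.34 and the histone chaperone Nap1l1 by -0.16 on the log2 scale, with adjusted p-values in limma of 0.624 and 0.621.

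The genes whose profile over the 6 ovaries was most like that of Kcnq1ot1 were ranked among 13062 genes with a mean of at least 1 log2 CPM, by the root mean square difference of their log2 values after each gene's own mean had been subtracted. The closest was Galnt15, a glycosyltransferase gene, at a root mean square difference of 0.036, with 49.4, 55.4 and 51.2 CPM in the DEHP lineage, against 35.3, 34.8 and 32.7 CPM in the control lineage. It was followed by Ptpru (0.053), Doc2g (0.079), Gm15506 (0.080) and Gm41361 (0.086). Because this measure picks genes with the same separation of lineages, their differences of 0.56 to 0.66 on the log2 scale are a description. The other measured domain genes ranked further down among the 13062: Cdkn1c 825 (0.243), Cd81 2919 (0.311), Osbpl5 3053 (0.314), Tssc4 4973 (0.345), Kcnq1 7294 (0.374) and Nap1l4 9426 (0.406). These ranks largely restate how far each gene's lineage difference lay from that of Kcnq1ot1, so they too are a description.

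**Figure D4:**
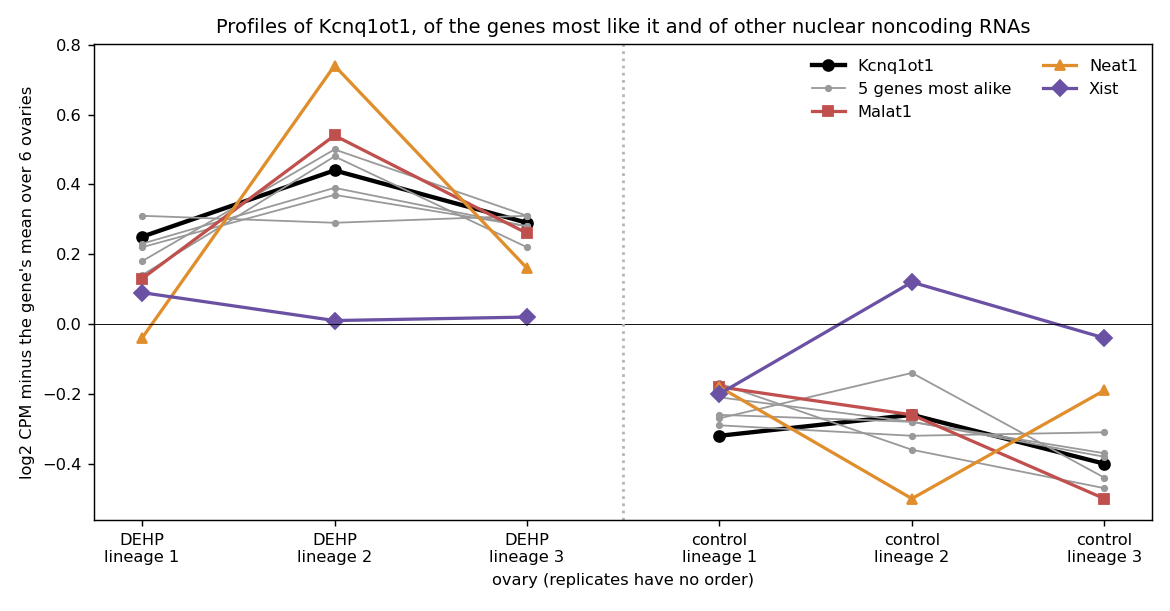
Log2 CPM minus each gene's own mean over the 6 ovaries, with DEHP-lineage ovaries on the left and control-lineage ovaries on the right of the dotted line, for Kcnq1ot1 (black), the 5 genes most like it (grey) and the nuclear noncoding RNAs Malat1, Neat1 and Xist; lines join ovaries of a lineage only to mark the gene. Malat1 followed Kcnq1ot1 closely, at a root mean square difference of 0.095, while Xist overlapped between the lineages.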

How the data were processed

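Polyadenylated RNA of 6 whole ovaries, 3 of each lineage, was sequenced. The submitters' processing notes name STAR 2.5.3a, featureCounts and Subread 1.5.2, edgeR 3.20.5 under R 3.4.3, and Trimmomatic 0.36, with bcl2fastq 2.17.1.14, FastQC 0.11.5 and build GRCm38.p6. Their settings, strand and the prior count are not stated in these sources. The authors deposited log2 CPM per ovary for 16454 genes with a surrogate variable removed, per the name of the deposited table, and their own log2 fold change, fold ratio, p-value and adjusted p. Summed CPM ran between 979868 and 1026735. Read counts and depth are unknown, so no interval for counting error is given.

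The lineages were compared with limma 3.58.1 (R 4.3.3) on the deposited log2 CPM of all genes, with a mean-variance trend, two-sided, with Benjamini-Hochberg adjustment over all genes and a threshold of 0.05. The deviations from the lineage means filled 3 directions, so 3 residual degrees of freedom were used in place of 4. The test was checked on simulated data with no shared litters or founder dams and with changes larger than those of the domain genes. That check therefore covers neither. CPM values are 2 raised to the deposited values. The genes and lists were chosen with earlier results of these data known. Named genes are the 10 domain genes, the 5 most like Kcnq1ot1, and up to 3 of each list with the smallest p; exceptions are marked. Exon lengths and 31-base words shared between transcripts came from GENCODE on the same build, and positions and promoters from RefSeq.

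Same-numbered ovaries did not deviate together in the deposited values (correlations -0.327, -0.00343 and -0.198). A surrogate variable had been removed from these values, so the correlations cannot show whether the numbers paired the ovaries before that step. The labels give no pairing, and the ovaries were treated as unpaired. Alternatives were the degrees of freedom, a replicate block, 2 other scalings, a pseudocount, a filter, no trend and leaving out each ovary.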

Additional observations from a re-analysis of the deposited data

How the results depend on the processing

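The difference of Kcnq1ot1 kept its direction in all 15 alternatives run, between 0.55 and 0.69 on the log2 scale, with 0.55 for its sum with Kcnq1 and 0.60 to 0.69 when 1 ovary was left out. It was chosen for this difference and its lineages did not overlap, so leaving out 1 ovary could not turn its sign. The degrees of freedom, the block, the filter and the trend do not enter the estimate, and the sum is mostly Kcnq1ot1. Its kept direction is therefore no support for the difference. The signs of 3 genes near 0 rested on single ovaries. Tssc4 had -0.01 without DEHP-lineage replicate 2, -0.05 without control replicate 1 and -0.0035 without control replicate 2 (leave-one-out range -0.05 to 0.09). Kcnq1 had -0.06 without control replicate 2 (range -0.06 to 0.27), and Osbpl5 had -0.05 without control replicate 3 (range -0.05 to 0.09). Cdkn1c (0.16 to 0.44), Cd81 (0.04 to 0.17) and Nap1l4 (-0.15 to -0.09) kept their direction when 1 ovary was left out. For Nap1l4, whose lineages did not overlap, no other outcome was possible. The 6 genes other than Kcnq1ot1 had 0 calls in every alternative.

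The count of genes called was 7. It was 20 with 4 residual degrees of freedom, which treat the removed direction as if it were there, 1 with no trend and 3 with quantile normalization. It was 155 with the replicate number as a block, a fit left with 1.68 residual degrees of freedom. Whether the numbers pair the ovaries is unknown. Leaving out 1 ovary gave 3 to 35 calls: 35 without DEHP-lineage replicate 2, 21 without control replicate 1 and 3 without control replicate 2. Averaging DEHP-lineage replicates 1 and 3, chosen after seeing the data, gave 5. The causes of these shifts were not tested. Of the 7 measured genes, 2 had lineages without overlap, Kcnq1ot1, which was chosen for its separation, and Nap1l4, against 22.9% of all genes. Quantile normalization left 1, Kcnq1ot1, with 22.9% of all genes. Leaving out 1 ovary gave 2 to 4 of the 7, with 23.9% to 38% of all genes; the 4 without control replicate 3 were Kcnq1ot1, Kcnq1, Nap1l4 and Osbpl5, with 34.7% of all genes. The number of 3 ovaries a lineage and the unknown depth limit every statement on genes of low level.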

Other observations

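Other nuclear noncoding RNAs were looked at after the likeness of Malat1 to Kcnq1ot1 had been seen, so their values are a description of genes chosen after the fact. Malat1, an abundant RNA of nuclear speckles, had 1166, 1552 and 1281 CPM in the DEHP lineage, against 946, 894 and 757 CPM in the control lineage. Its lineages did not overlap, and its log2 difference was 0.62 (SE 0.144; adjusted p over all genes in limma = 0.382). Neat1, the scaffold of paraspeckles, had 81.7, 140 and 93.6 CPM in the DEHP lineage, against 74.1, 59.1 and 73.6 CPM in the control lineage, with a log2 difference of 0.58 (SE 0.201; adjusted p in limma = 0.502). Airn, which silences another imprinted cluster in cis, averaged 1.40 ± 0.214 CPM in the DEHP lineage and 0.995 ± 0.168 CPM in the control lineage (SD, n = 3 each), with a log2 difference of 0.49 (SE 0.300; adjusted p in limma = 0.678). Ftx, which lies beside Xist, had a log2 difference of 0.28 (adjusted p in limma = 0.640). Xist, which coats the inactive X chromosome, averaged 1591 ± 48.7 CPM in the DEHP lineage and 1510 ± 167 CPM in the control lineage (SD, n = 3 each), and its lineages overlapped.

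Among genes with a mean of at least 1 log2 CPM, RefSeq annotated 411 as long noncoding RNAs, of which 251 had a higher and 160 a lower mean in the DEHP lineage, with a median log2 difference of 0.09. Of the 12424 protein-coding genes at that level, 5362 had a higher and 7062 a lower mean, with a median of -0.02. An unadjusted p under 0.05 was found in 14.6% of the noncoding genes, 51 higher and 9 lower, and in 8.79% of the protein-coding genes. RNA quality and the nuclear share of each library were not measured in these files, and their part in these differences was not tested.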
